A study of Mus musculus with 12 samples.

Results

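To describe what low-dose oxaliplatin (Oxali) does to prostate cancer cells beyond class I antigen presentation, the 2 libraries titled Oxali were compared with the 2 untreated control libraries (Ctrl) over all expressed genes. These are 4 of the 12 libraries of the series. The cells were Myc-CaP, an established mouse line of FVB/NJ background derived from a male, which came from a prostate carcinoma driven by a human MYC transgene under a probasin promoter. Every group was harvested at 48 h. Oxali cells received 2 μM of the drug and Ctrl cells received no agent. The other 8 libraries were used to look at the same drug in other samples, and they also entered the shared fit. They were IFNγ alone at 200 or 2000 pg (IFN200, IFN2000) and Oxali plus IFNγ at those doses (Combo200, Combo2000), 2 libraries each. The study's text gives these doses per mL of medium. All cells carry the same MYC-driven background, and no label says whether the 2 libraries of a group came from separate cultures, so p-values measure the spread between these libraries, which may be technical.

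Oxali is a platinum compound that forms crosslinks between bases of DNA. Such lesions stall replication and transcription and engage repair pathways, checkpoint kinases and p53, a transcription factor that switches on genes for cell cycle arrest, repair and death. Platinum drugs of the oxaliplatin type are also known for disturbing the nucleolus, where ribosomes are assembled. NF-κB, a family of dimeric transcription factors held in the cytoplasm by IκB inhibitors, can be activated by DNA damage and drives genes for chemokines, adhesion molecules and its own inhibitors.

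The labels of the single treatments conflict and have to be read first. The title and the agent name different treatments in 6 libraries: the IFN200 titles stand beside an Oxali agent, the IFN2000 titles beside IFNγ at 200 pg, and the Oxali titles beside IFNγ at 2000 pg. Titles were used here. Ctrl and the combinations have no such conflict. Cps1, the gene with the largest fall below, was at 72.3 and 61.6 CPM (counts scaled to a common library size) in Ctrl, 66.1 and 61.2 in IFN200, 2.12 and 1.81 in Oxali and 1.48 and 1.51 in Combo200. The libraries titled Oxali were thus near Combo200 and those titled IFN200 near Ctrl for this gene. Cps1 was picked for its fall in the libraries titled Oxali, so its distance from Ctrl there is no separate check of the titles. Whether the titles or the agents are right was not tested. One IFN2000 library stood apart: replicate 2 held 67 genes with at least 10 counts that had at most 3 counts in each other library, against 0 such genes in all 4 Ctrl and Oxali libraries. Its values are compared directly only at 2000 pg. All 12 libraries share the fit, so it also bears on the filter, the scaling and the spread behind every p-value. With only the 4 Ctrl and Oxali libraries in the fit, 8830 genes were called in Oxali against Ctrl, beside 8911. Of the luminal prostate markers, Hoxb13 and Krt8 had at least 353 counts in every library, but Krt18 had at most 5, Cdh1 at most 6, and Epcam was listed at 0 throughout. The mitochondrially encoded genes, which every cell uses, include 6 of 13 that were also listed at 0 in all 12 libraries, so a 0 in this table is not read as absence.

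Library totals in the 4 libraries ran from 18749975 to 20827727 counts, so a gene without any count may still lie at up to 3 counts, or 0.138 to 0.167 CPM. This limit covers counting error only. Partner libraries differed by an SD of 0.106 log2 units in Ctrl and 0.124 in Oxali over 9496 genes, the more abundant ones in Ctrl. Of these, 9 differed by over 2-fold between the Oxali libraries and 1 between the Ctrl libraries. The chi-square of counts within a pair, per gene, was 9.15 in Oxali, the highest of any group, and 1.80 in Ctrl. Of 55216 genes in the table, 13177 passed the filter on low counts, and 8911 of these (67.6%) were called at an adjusted p under 0.05 with the quasi-likelihood test of edgeR. Of all genes tested, 34.8% were higher with Oxali and 32.8% were lower. The counts of list members given below are to be read beside these shares. A change of at least 2-fold was far less common in one direction than the other: 10.6% of genes rose that far (1396 genes) and 3.22% fell that far (424 genes), 13.8% in all. Both Oxali libraries lay above both controls in 42.8% of genes and below them in 40.6%. The median size of the fitted change was 0.61 on the log2 scale for rises and 0.43 for falls. The largest fitted folds rest on few counts: 182 genes rose and 11 fell at least 8-fold, but 62 and 4 with the 259 rises and 28 falls that had at most 3 counts in each library of the lower group put at the bound which 3 counts set. At least 2-fold, these counts were 1364 and 424. The median of all genes tested was 0.02. In what follows, a gene that rose or fell by a value did so on the log2 scale. In bulk RNA, fewer cells of a kind and less RNA per cell cannot be told apart, and this holds for every value below.

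The 12 largest rises with Oxali, among genes of at least 1 log2 CPM on average over all libraries, included Ccl9, C3, Lamb3, Krt16 and Glipr1. Ccl9 (ENSMUSG00000019122.8, chr11:83572919-83578636, minus strand, GRCm38), a chemokine that attracts myeloid cells, was at 1.34 and 1.72 CPM in Ctrl and 50.5 and 53.7 CPM in Oxali. Both Oxali libraries were far above both controls, and the log2 fold change came to 5.08 (SE 0.11, adjusted p 2.43e-17) with 2 libraries in each group, as in all values below. C3 (chr17:57203970-57228136, minus strand), the central component of complement, was at 2.45 and 2.94 CPM in Ctrl and 43.7 and 43.1 CPM in Oxali. It was low in both controls and nearly equal in both Oxali libraries, and the log2 fold change was 4.0 (SE 0.12, adjusted p 1.05e-15). Lamb3, a laminin chain of the epithelial basement membrane, was the most abundant of these genes, at 12.5 and 11.6 CPM in Ctrl and 186 and 185 CPM in Oxali, and rose by 3.95 (SE 0.05, adjusted p 1.10e-20) on the log2 scale. Krt16, a keratin of stressed epithelium, was at 0.334 and 0.203 CPM in Ctrl and 5.57 and 5.92 CPM in Oxali, and Glipr1 was at 0.278 and 0.456 CPM in Ctrl and 7.46 and 7.01 CPM in Oxali. These last 2 genes were under 1 CPM in each control library and rose by 4.41 (SE 0.28) and 4.27 (SE 0.26) on the log2 scale. Other genes reached this group on few counts. Gbp5, Tgtp2 and Rtp4, all interferon-inducible, had 0 counts in both controls. In Oxali they had 2 and 6, 3 and 4, and 2 and 4 counts, too close to the limit of 3 counts for a size to be given. They passed the filter on low counts because of the combination libraries. The calls of Gbp5 and Rtp4 were lost without Ctrl 2 or Oxali 2, and that of Rtp4 also without Ctrl 1. Cd74, the invariant chain of class II molecules, with 2 and 1 counts in Ctrl, was at least 8.67-fold higher with Oxali. Gbp4, a guanylate-binding protein, with 0 and 1 counts in Ctrl, was at least 3.22-fold higher. The bounds are set against 3 counts per control library.

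**Figure D1:**
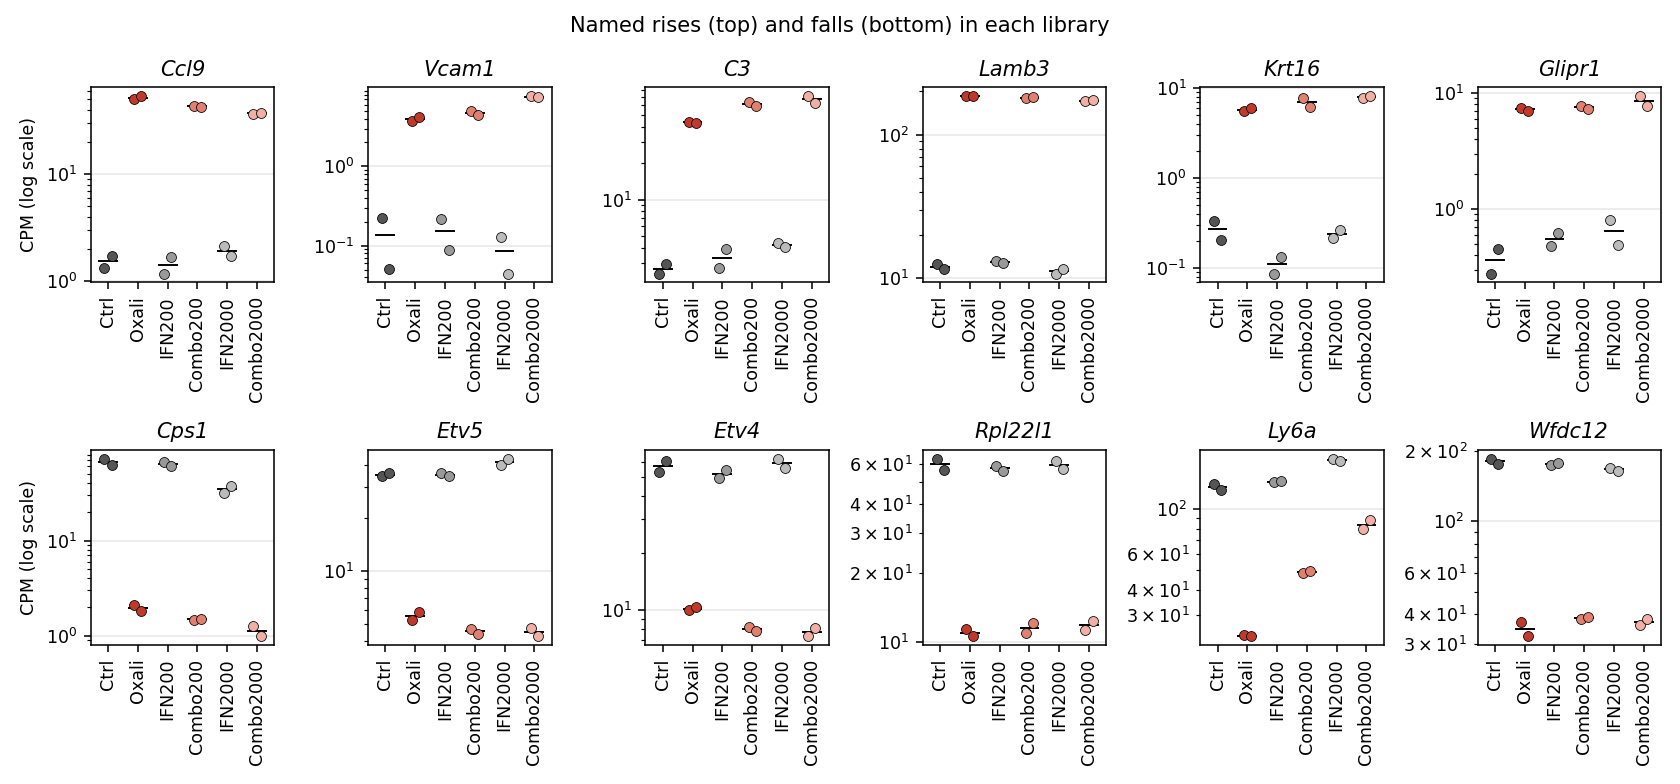
Level of 12 named genes in each library, in CPM on a log scale that differs between panels, with 1 point per library and a bar at the mean of each pair. In every panel the Oxali pair is apart from the Ctrl pair and the combinations are apart from IFNγ alone in the same direction. Ly6a in the combinations sits between, at 48.5 and 49.7 CPM in Combo200 against 24.1 and 23.7 in Oxali.

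The NF-κB pathway moved mostly upward. Of its 30 listed genes 28 were tested, 19 rose, 4 fell and 5 were not called, with a median log2 fold change of 0.68 beside 0.02 over all genes tested. Among the 5 subunits, 4 rose. Relb, the subunit of the noncanonical arm, was at 3.84 and 4.36 CPM in Ctrl and 32.0 and 34.0 CPM in Oxali, a rise of 3.00 (SE 0.12, adjusted p 5.46e-14) in log2. Nfkb2, which encodes its precursor partner p100, was at 46.3 and 46.9 CPM in Ctrl and 183 and 184 CPM in Oxali and rose by 1.98 (SE 0.05, adjusted p 2.57e-17). The canonical subunits moved little: Rela changed from 89.7 and 93.1 CPM to 124 and 112 (log2 fold change 0.37, SE 0.05), Rel rose by 0.52 (named after its values were seen), and Nfkb1 was at 123 and 123 CPM in Ctrl and 128 and 129 CPM in Oxali and was not called (log2 fold change 0.06, adjusted p 0.143). It was called with upper-quartile scaling and with a filter at a mean of 50 counts. Differences between these genes were not tested.

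Inhibitors and targets of NF-κB mostly rose. Of 8 inhibitors 6 rose and 1 fell, the fall being in Nfkbib, the gene for IκBβ, at -0.37 (SE 0.06). Nfkbia, the gene for IκBα and the best known feedback target, was at 59.1 and 58.4 CPM in Ctrl and 199.8 and 183 CPM in Oxali and rose by 1.70 (SE 0.05, adjusted p 1.58e-16); it and Nfkbie, at 2.93 (SE 0.14), were picked after their values were seen. Of 6 kinases 3 rose and 2 fell. Chuk, the gene for IKKα, fell by 0.28, and Map3k14, which encodes the kinase NIK of the noncanonical arm, rose by 1.48 (picked after its values were seen). Of the 9 adaptors and targets tested 6 rose. Vcam1, an adhesion molecule for leukocytes, went from 4 and 1 counts in Ctrl to 82 and 88 counts in Oxali, a fitted rise of 4.85 (SE 0.37, adjusted p 5.50e-10) in log2 that rests on very few control counts. Traf1, a signalling adaptor, had 1 and 2 counts in Ctrl against 63 and 68 in Oxali and was at least 19.3-fold higher. Sod2, the mitochondrial superoxide dismutase and also a target, went the other way, at -0.39 (SE 0.04).

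The 4 promoters shown were picked because they hold a match to a motif of NF-κB or of interferon factors, in genes described above or below that rose. Most others had none: of the 6 named genes of the NF-κB pathway with a promoter entry, Nfkb2 alone held the NF-κB motif, and Chuk, Nfkbib, Rela, Sod2 and Traf1 did not. The 250 bases before the annotated start are from RefSeq (GRCm38.p6), 5′ to 3′ on the strand of the gene, and 98 of the 139 named genes had an entry. Capitals mark matches on either strand to an NF-κB consensus (GGG, 2 bases of any kind, TTTCC) and, in the last sequence, to the core of the interferon-stimulated response element (ISRE, GAAA, 2 bases of any kind, GAAA). In order, the windows are chr11:83578637-83578886 (minus), chr19:46304487-46304736 (plus), chr3:107760470-107760719 (minus) and chr5:92348890-92349139 (minus).
Ccl9: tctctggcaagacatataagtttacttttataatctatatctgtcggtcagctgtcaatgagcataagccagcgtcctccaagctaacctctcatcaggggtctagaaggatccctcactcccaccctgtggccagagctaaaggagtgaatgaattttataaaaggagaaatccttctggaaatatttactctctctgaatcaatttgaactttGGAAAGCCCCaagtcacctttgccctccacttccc
Nfkb2: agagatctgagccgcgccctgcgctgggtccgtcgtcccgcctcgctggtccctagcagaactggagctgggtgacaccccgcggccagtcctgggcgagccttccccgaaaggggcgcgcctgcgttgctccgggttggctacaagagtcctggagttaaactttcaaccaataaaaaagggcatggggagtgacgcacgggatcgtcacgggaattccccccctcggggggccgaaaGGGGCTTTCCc
Csf1: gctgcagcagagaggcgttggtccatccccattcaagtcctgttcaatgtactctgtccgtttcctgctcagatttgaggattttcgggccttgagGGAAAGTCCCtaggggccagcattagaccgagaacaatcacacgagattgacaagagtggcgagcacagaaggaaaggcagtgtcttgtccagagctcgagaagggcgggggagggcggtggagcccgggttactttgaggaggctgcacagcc
Cxcl10: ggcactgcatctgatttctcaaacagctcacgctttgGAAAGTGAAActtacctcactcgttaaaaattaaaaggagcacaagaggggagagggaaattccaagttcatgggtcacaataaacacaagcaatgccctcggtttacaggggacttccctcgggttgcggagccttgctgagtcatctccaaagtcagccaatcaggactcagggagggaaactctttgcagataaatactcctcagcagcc
The match begins 35 bases before the start in Ccl9, 11 in Nfkb2, 154 in Csf1 and 213 in Cxcl10, and none of these overlaps another motif searched. Nfkb2 has a second start whose window (chr19:46305680-46305929) also holds a match, 225 bases before it. Among promoter windows of genes that rose at least 2-fold, 2.61% (35 of 1343) held the NF-κB motif, against 1.53% of windows of all genes tested, 1.41% of all windows, and 1 of 270 windows of genes that fell that far. ISRE matches were in 4.17% of windows of genes that rose, 2.58% of tested genes, 2.98% of all windows and 1.48% of genes that fell. For AP-1 (TGANTCA) the shares were 7.82%, 4.60%, 6.75% and 7.41%, for the E-box CACGTG 5.81%, 8.34%, 6.02% and 10.7%, for an ETS core (CCGGAAGT) 2.16%, 6.10%, 2.88% and 4.07%, and for an E2F core (TTTGGCGC) 0.521%, 0.790%, 0.417% and 0%. These shares describe letters in a window, not bound sites. A gene can have several windows, so the windows are not independent. Bbc3, which fell, also had an NF-κB match and Foxa1, which fell, an ISRE match. Krt14, Gbp5 and Tgtp2, which were called higher, held one or both, and C3, Lamb3 and Etv5 had none of these motifs in their windows.

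Among secreted signals, 20 of 36 chemokine and cytokine genes passed the filter and 12 of them rose while 1 fell. Gene by gene, the others that rose were Ccl5, Ccl17, Ccl28, Cxcl15, Cxcl17, Cx3cl1, Il34, Lif and Csf3, beside Ccl9, Csf1 and Cxcl10, and Ccl5 did so on 2 and 3 counts in Oxali. Over the 20 genes the median log2 fold change was 1.39, or 0.55 when the 3 genes with at most 3 counts in each control library were put at their lower bound, and it was 0.57 without Oxali 2. Csf1, the growth factor of macrophages, was at 15.8 and 16.6 CPM in Ctrl and 86.1 and 92.2 CPM in Oxali. The Oxali values did not overlap the controls and gave a rise of 2.46 (SE 0.06, adjusted p 3.57e-17) in log2. Cxcl10, a ligand that draws in T cells, was at 0.223 and 0.101 CPM in Ctrl and 0.829 and 0.954 CPM in Oxali. Its level stayed under 1 CPM in all 4 libraries, and its log2 fold change was 2.44 (SE 0.48, adjusted p 1.48e-04). Cxcl5, a neutrophil chemokine, was the member that fell, from 12.8 and 11.5 to 7.83 and 7.40 CPM (log2 fold change -0.67, SE 0.10). Tnf, Il6, Il1b, Ccl2 and Cxcl2 did not pass the filter.

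In the complement list 9 of 22 genes were tested, of which 5 rose, 1 fell and 3 were not called (median log2 fold change 0.94, or 0.74 with 3 genes at their bound, and 1.54 without Oxali 1). Only 3 rose when Ctrl 2 or Oxali 2 was left out, or with only these 4 libraries in the fit. Besides C3, Clu, a chaperone that restrains the terminal complex, was at 158 and 153 CPM in Ctrl and 313 and 286 CPM in Oxali and rose by 0.94 (SE 0.05, adjusted p 3.44e-12). C1s1, a protease of the classical pathway, with 1 and 0 control counts and 9 and 4 with Oxali, was at least 1.90-fold higher, a call lost without Ctrl 2 or Oxali 1. Cr1l, a regulator, fell by 0.33.

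**Figure D2:**
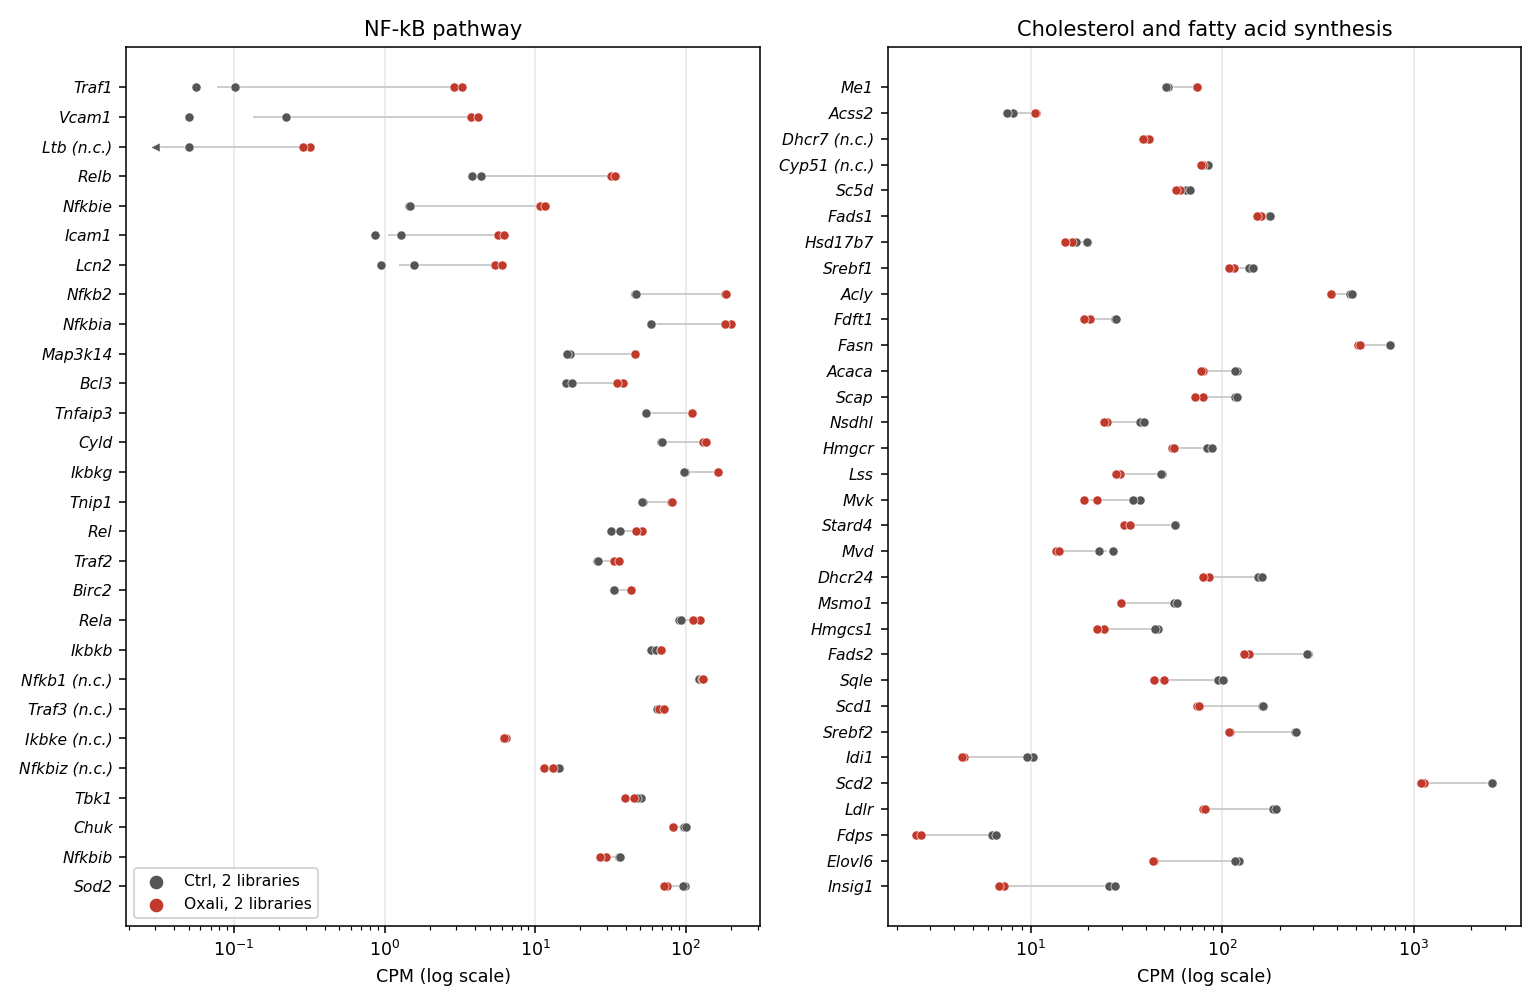
Level of each tested member of the NF-κB pathway (left) and of cholesterol and fatty acid synthesis (right), in CPM on a log scale, with 1 point per library, grey for Ctrl and red for Oxali. A triangle at the left edge is a library at 0, a grey line joins the group means, and n.c. marks a member not called. Red points lie to the right of grey ones in the 19 NF-κB members that rose and to the left in the 28 lipid genes that fell, with the widest gaps in Traf1 and Vcam1 and in Insig1.

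Genes of the antiviral interferon response, which interferons induce through STAT and IRF factors, mostly rose with Oxali without added IFNγ. Of 44 listed genes 34 were tested, 23 rose, 2 fell, and the median log2 fold change was 0.77, or 0.69 with 7 genes at their bound. The levels were low. Usp18, which restrains interferon receptor signalling, was at 0.167 and 0.355 CPM in Ctrl and 2.86 and 2.96 CPM in Oxali (log2 fold change 3.43, SE 0.32, adjusted p 1.20e-08). Oasl2, of the oligoadenylate synthetase family, was at 0.334 and 0.507 CPM in Ctrl and 2.90 and 2.62 CPM in Oxali (log2 fold change 2.69, SE 0.34, adjusted p 8.74e-07), and Xaf1 was at 0.223 and 0.355 CPM in Ctrl and 1.93 and 2.43 CPM in Oxali (log2 fold change 2.88, SE 0.34, adjusted p 2.94e-07). All these genes were under 1 CPM in both controls and above 1.9 CPM in both Oxali libraries. Among 9 regulators 8 rose, and Irf3, which relays nucleic acid sensing, fell by 0.31 (SE 0.06). Of the 6 sensors tested 3 rose and 1 fell, and of the 19 effectors 12 rose and none fell.

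**Figure D3:**
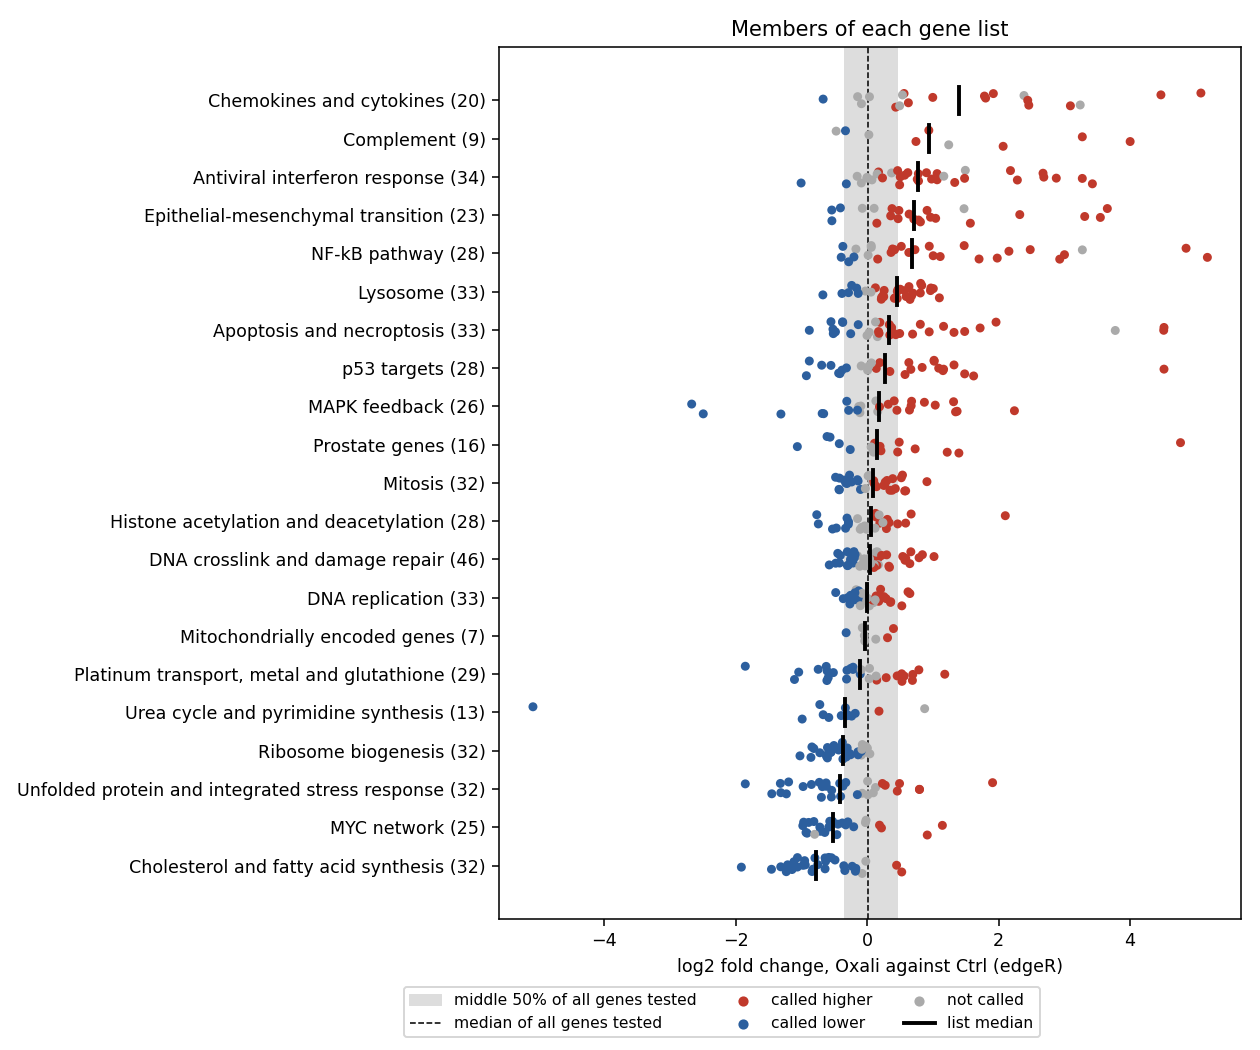
Log2 fold change of every tested member of each list with at least 5 tested members, Oxali against Ctrl, with the number of tested members after the list's name. Red points were called higher, blue lower and grey not called, the black bar is the list median and the grey band the interquartile range of all genes tested. The medians of these lists run from -0.77 for cholesterol and fatty acid synthesis to 1.39 for chemokines and cytokines, and the lists of replication, mitosis and repair lie near the median of all genes.

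Targets of p53, the transcription factor activated by DNA damage, leaned upward. Of 28 tested 16 rose (57.1%, beside 34.8% of all genes tested) and 8 fell (28.6%, beside 32.8%). The median log2 fold change was 0.27. All 5 genes of repair and metabolism rose, among them Ephx1, an epoxide hydrolase, at 1.32 (SE 0.05), and Polk, a polymerase that copies past damaged bases, at 1.02 (SE 0.08). In the arrest group, Cdkn1a, the gene for the inhibitor p21, was at 24.0 and 24.8 CPM in Ctrl and 51.0 and 48.1 CPM in Oxali and rose by 1.02 (SE 0.06, adjusted p 1.02e-11). Trp53inp1, a cofactor of p53, was at 5.84 and 4.36 CPM in Ctrl and 15.9 and 15.3 CPM in Oxali and rose by 1.62 (SE 0.14). The feedback genes parted: Mdm2, the ubiquitin ligase that degrades p53, rose from 70.7 and 65.2 to 104 and 107 CPM (log2 fold change 0.64, SE 0.05, adjusted p 4.35e-10), while its relative Mdm4 fell from 75.8 and 69.3 to 37.9 and 38.6 CPM (log2 fold change -0.92, SE 0.06, adjusted p 9.55e-11). Death genes were split too, with 4 higher and 5 lower of 10. Pmaip1, the gene for NOXA, was at 67.4 and 68.6 CPM in Ctrl and 186 and 194 CPM in Oxali (log2 fold change 1.49, SE 0.04, adjusted p 3.75e-16), and Fas, the death receptor, with 1 count in each control library and 34 and 23 in Oxali, was at least 8.35-fold higher. Against these, Bax was at 77.2 and 79.3 CPM in Ctrl and 43.1 and 42.1 CPM in Oxali (log2 fold change -0.88, SE 0.05, adjusted p 3.49e-12), Apaf1, the scaffold of the apoptosome, fell by 0.69 (SE 0.05), and Bbc3, the gene for PUMA, fell by 0.55 (SE 0.20), a call lost in DESeq2 and without Ctrl 1, Ctrl 2 or Oxali 2.

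The wider list of apoptosis and necroptosis leaned upward, with 19 rises and 9 falls among 33 tested and a median of 0.34 (0.20 with bounds for 4 genes at the floor, and 0.18 without a filter on low counts). Casp12, an inflammatory type of caspase, was at 1.89 and 1.67 CPM in Ctrl and 6.31 and 7.59 CPM in Oxali (log2 fold change 1.96, SE 0.16, adjusted p 1.57e-09). Gsdmd, the pore former of pyroptosis, was at 1.22 and 1.93 CPM in Ctrl and 3.64 and 4.34 CPM in Oxali (log2 fold change 1.32, SE 0.22, adjusted p 2.63e-05), and Ripk3, the kinase of necroptosis, fell by 0.52 (SE 0.08). Of 7 caspases 5 rose and 1 fell, of 10 pro-death members 6 rose and 3 fell, and of 6 genes that favour survival 2 rose and 3 fell.

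Repair genes as a group stayed near the background. Of 46, all tested, 16 rose and 15 fell, 67.4% called in all beside 67.6% of all genes, with a median of 0.05. In the Fanconi pathway, which unhooks interstrand crosslinks, Fancd2, the protein that is ubiquitinated at a crosslink, was at 48.0 and 47.1 CPM in Ctrl and 81.6 and 83.0 CPM in Oxali (log2 fold change 0.79, SE 0.05, adjusted p 1.91e-11), and Fancb fell by 0.45 (SE 0.07). In excision repair Ddb2, a damage sensor, rose by 0.67 (SE 0.10), while the endonuclease gene Ercc5 and the helicase gene Ercc2 fell (log2 fold changes -0.57 and -0.48). Of genes for platinum transport, metals and glutathione, 29 of 37 were tested, 10 rose and 15 fell. Slc31a1, the copper transporter CTR1 that has been linked to platinum uptake, was at 91.0 and 92.6 CPM in Ctrl and 54.8 and 55.0 CPM in Oxali, with both Oxali libraries below both controls (log2 fold change -0.74, SE 0.04, adjusted p 6.34e-12). Its relative Slc31a2 rose by 0.79 (SE 0.06), and the efflux pumps Abcc3 and Abcb1b rose by 1.18 and 0.70. On the glutathione side Slc7a11, which imports cystine, was at 159 and 147 CPM in Ctrl and 42.0 and 42.9 CPM in Oxali (log2 fold change -1.85, SE 0.06, adjusted p 1.69e-15), Gstp1, a glutathione transferase, fell by 1.10 (SE 0.06) and G6pdx, a source of NADPH, fell by 1.04 (SE 0.04).

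Cell cycle genes moved little and in both directions. Of 33 DNA replication genes 13 rose (39.4%) and 12 fell (36.4%), near the 34.8% and 32.8% of all genes tested. Their median was 0.00, and none reached 2-fold. Cdc45, a helicase cofactor, was at 68.1 and 73.5 CPM in Ctrl and 113 and 109 CPM in Oxali (log2 fold change 0.65, SE 0.04, adjusted p 1.13e-10), Rfc3 of the clamp loader rose by 0.62 (SE 0.05) and Pola1, the catalytic subunit of DNA polymerase α, by 0.53 (SE 0.04). In the licensing group 7 of 13 fell, such as Mcm7 at -0.29 (SE 0.04) and Gins1 at -0.36 (SE 0.08). Fen1, the flap endonuclease, fell by 0.48 (SE 0.16), a call lost in DESeq2 and without Ctrl 1 or Oxali 2. Of 32 mitotic genes 16 rose (50%) and 12 fell (37.5%), again with none at 2-fold. Nusap1, a spindle protein, was at 101 and 107 CPM in Ctrl and 195 and 196 CPM in Oxali (log2 fold change 0.91, SE 0.04, adjusted p 1.17e-13), and Foxm1, a factor that drives mitotic genes, and Ndc80 of the kinetochore rose by 0.59 and 0.57. Entry genes leaned the other way, with 5 of 8 lower. Ccna2, the gene for cyclin A2, was at 376 and 405 CPM in Ctrl and 289.8 and 291 CPM in Oxali (log2 fold change -0.43, SE 0.04, adjusted p 1.08e-08), and Plk1, a mitotic kinase, and Pttg1, the gene for securin, fell (log2 fold changes -0.42 and -0.48).

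Most genes that build ribosomes fell. Of 32, all tested, 25 fell (78.1%, beside 32.8% of all genes tested), 7 were not called and none rose, with a median of -0.37. Abundant genes leaned down in general, with a median of -0.30 in the top of 10 equal bins by level in IFN200. The part of level in this list was not tested. Bop1, needed to mature the large subunit, was at 270.2 and 279.5 CPM in Ctrl and 143 and 129 CPM in Oxali (log2 fold change -1.02, SE 0.05, adjusted p 3.36e-13), the list's one fall past 2-fold. Fbl, the gene for the nucleolar methyltransferase fibrillarin, was at 168 and 172 CPM in Ctrl and 98.3 and 91.6 CPM in Oxali (log2 fold change -0.84, SE 0.06, adjusted p 3.16e-10), and Taf1d, a factor of RNA polymerase I, fell by 0.85 (SE 0.05). The MYC network showed a like picture in its targets. Myc itself was at 126 and 132 CPM in Ctrl and 150.1 and 145 CPM in Oxali and rose slightly (log2 fold change 0.19, SE 0.04, adjusted p 7.71e-04), and the human transgene has no row of its own among these mouse genes. Of 16 targets 15 fell. Ldha, lactate dehydrogenase A, was at 3214 and 3131 CPM in Ctrl and 1653 and 1571 CPM in Oxali (log2 fold change -0.98, SE 0.04, adjusted p 7.60e-15), and Hspe1, a mitochondrial chaperonin, and Slc7a5, an amino acid transporter, fell (log2 fold changes -0.96 and -0.93). The MYC antagonists Mxd1, Mxd4 and Mnt rose by 1.15, 0.92 and 0.22, while of all 8 partners and antagonists 3 rose, 3 fell and 2 were not called. The ribosome and MYC lists share Ncl and Npm1, so they are not separate sets of genes.

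The largest fall of any named gene was in carbamoyl phosphate synthesis. Cps1 (chr1:67123026-67231259, plus strand), the mitochondrial enzyme that feeds ammonia into the urea cycle, was at 72.3 and 61.6 CPM in Ctrl and 2.12 and 1.81 CPM in Oxali. Both controls were far above both Oxali libraries, and the log2 fold change was -5.08 (SE 0.13, adjusted p 8.11e-17). The rest of the list mostly moved the same way by less. Of 13 of 17 genes tested 11 fell and 1 rose, with a median of -0.33. Slc25a13, which carries aspartate out of mitochondria, was at 136 and 144 CPM in Ctrl and 73.2 and 68.3 CPM in Oxali (log2 fold change -0.99, SE 0.05, adjusted p 6.81e-13), and Uck2, a uridine kinase, was at 262 and 269.9 CPM in Ctrl and 161 and 163 CPM in Oxali (log2 fold change -0.72, SE 0.04, adjusted p 4.26e-12). The member that rose, Ctps2, did so by 0.18 (SE 0.07), a call lost in DESeq2 and when Ctrl 1, Ctrl 2 or Oxali 1 was left out.

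Lipid synthesis was the list with the lowest median, -0.77. Of 33 genes 32 were tested, 28 fell, 10 of them at least 2-fold, and 2 rose. SREBP factors control most of these genes. Insig1, an SREBP target that also restrains the factors, was at 25.5 and 27.7 CPM in Ctrl and 7.28 and 6.87 CPM in Oxali, with no overlap (log2 fold change -1.91, SE 0.09, adjusted p 2.18e-13). Elovl6, which lengthens fatty acids, was at 123 and 117 CPM in Ctrl and 44.0 and 43.6 CPM in Oxali (log2 fold change -1.45, SE 0.05, adjusted p 1.69e-15), and Fdps, of the mevalonate pathway, was at 6.29 and 6.64 CPM in Ctrl and 2.53 and 2.67 CPM in Oxali (log2 fold change -1.31, SE 0.15, adjusted p 1.59e-07). Cholesterol enzymes fell in 14 of 16 cases, the uptake and regulator genes in all 6 tested, and fatty acid genes in 8 of 10. The 2 rises were in Me1, malic enzyme, at 0.53 (SE 0.05), and Acss2, which makes acetyl-CoA from acetate, at 0.45 (SE 0.10).

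Stress genes of the endoplasmic reticulum mostly fell, while Ddit3 was among those that rose. Of 32 genes of the unfolded protein and integrated stress responses 20 fell and 7 rose, median -0.41. Ddit3, the gene for CHOP, was at 4.56 and 4.86 CPM in Ctrl and 17.1 and 18.4 CPM in Oxali, a rise of 1.91 (SE 0.12, adjusted p 3.83e-11), and Atf3 and Cebpb rose by 0.80 and 0.80. In contrast Xbp1, the factor spliced by IRE1, was at 137 and 136 CPM in Ctrl and 56.4 and 52.8 CPM in Oxali (log2 fold change -1.32, SE 0.05, adjusted p 4.12e-15), Psat1, of serine synthesis, was at 1005 and 976 CPM in Ctrl and 377 and 349 CPM in Oxali (log2 fold change -1.45, SE 0.04, adjusted p 2.68e-16), and 9 of 12 chaperone and folding genes fell.

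ETS factors that respond to growth factor signalling fell strongly. Etv5 (chr16:22381309-22439719, minus strand) was at 34.4 and 36.1 CPM in Ctrl and 5.25 and 5.87 CPM in Oxali (log2 fold change -2.67, SE 0.09, adjusted p 2.51e-15), and Etv4 was at 53.2 and 61.0 CPM in Ctrl and 10.0 and 10.4 CPM in Oxali (log2 fold change -2.49, SE 0.09, adjusted p 7.14e-15). In neither gene did the groups come near each other. Spry4, a feedback inhibitor of the same pathway, was at 2.89 and 2.48 CPM in Ctrl and 1.06 and 1.10 CPM in Oxali (log2 fold change -1.31, SE 0.26, adjusted p 2.11e-04), and Dusp6, a phosphatase for ERK, fell from 63.4 and 67.9 to 56.5 and 51.7 CPM (log2 fold change -0.28, SE 0.05). The list of MAPK feedback genes as a whole did not follow them, with 13 rises and 8 falls among 26 tested. Immediate early factors rose in 7 of 12 cases and fell in none. Junb, an AP-1 subunit, was at 59.6 and 66.3 CPM in Ctrl and 169 and 152 CPM in Oxali (log2 fold change 1.35, SE 0.06, adjusted p 1.00e-13). The ligand Hbegf and the receptor Egfr rose by 1.37 (SE 0.09) and 1.32 (SE 0.07).

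In the list of epithelial-mesenchymal transition 23 of 42 genes were tested, 17 rose and 3 fell, with a median of 0.71 (0.47 without a filter on low counts). All 7 tested genes of mesenchymal structure rose, such as Tpm2, a tropomyosin, at 10.6 and 10.1 CPM in Ctrl and 29.7 and 31.8 CPM in Oxali (log2 fold change 1.57, SE 0.09, adjusted p 6.21e-12). Timp1, an inhibitor of matrix proteases, rose by 1.04 (SE 0.04). Cldn3, a claudin of tight junctions, Loxl2 and Tgfb3 fell (log2 fold changes -0.54, -0.53 and -0.40). Only 4 of 10 junction genes passed the filter, and 1 rose and 1 fell. The 12 fibroblast and muscle markers summed to 29.0 to 30.4 CPM in Ctrl and 43.7 to 45.6 CPM in Oxali, with 8 of them at 0 in each control and 5 in each Oxali library, and the collagen genes Col1a1 and Col1a2 did not pass the filter. Of the 4 tested 3 rose, among them Tnnt2, a troponin, at 0.835 and 1.06 CPM in Ctrl and 5.76 and 4.15 CPM in Oxali, and Pdgfra, a growth factor receptor, at 17.3 and 13.2 CPM in Ctrl and 24.8 and 25.5 CPM in Oxali. Their part in the values of this list was not tested.

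Of prostate genes 16 of 26 were tested, 9 rose and 5 fell. The rises numbered 6 in DESeq2, 7 with a mean of at least 50 counts and 10 with upper-quartile scaling. Foxa1, a pioneer transcription factor of luminal cells, was at 428 and 433 CPM in Ctrl and 214 and 199 CPM in Oxali (log2 fold change -1.06, SE 0.04, adjusted p 3.21e-14), and Fkbp5, a co-chaperone of steroid receptors, fell by 0.56 (SE 0.04). Krt14, a basal keratin, rose by 1.40 (SE 0.15), Krt19, a luminal one, fell by 0.61 (SE 0.06), and Ncoa1, a receptor coactivator, rose by 0.73 (SE 0.06). The rise of Slc45a3, at 0.49 (SE 0.20), was lost in DESeq2, without a filter and without Ctrl 1, Ctrl 2 or Oxali 1.

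Lysosomal genes leaned upward, with 25 rises and 6 falls among 33 tested and a median of 0.46. Gaa, acid α-glucosidase, was at 139 and 139.8 CPM in Ctrl and 287 and 273 CPM in Oxali (log2 fold change 1.01, SE 0.04, adjusted p 2.25e-14), Sqstm1, an autophagy receptor, was at 291 and 276 CPM in Ctrl and 571 and 540.3 CPM in Oxali (log2 fold change 0.97, SE 0.04, adjusted p 3.82e-14), and Mitf, of the family of factors that drive lysosomal genes, rose by 1.10 (SE 0.09). All 4 listed regulators rose. Gusb, β-glucuronidase, Neu1 and Hexa fell (log2 fold changes -0.67, -0.38 and -0.28).

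Genes that write and erase histone acetylation were close to the background, with 11 rises and 8 falls among 28 tested. Ep300, the gene for p300, was at 147 and 133 CPM in Ctrl and 125 and 128 CPM in Oxali and was not called (log2 fold change -0.14, adjusted p 0.094). It was called without a filter and with only these 4 libraries in the fit. Crebbp, the gene for CBP, was at 76.1 and 72.3 CPM in Ctrl and 89.2 and 94.5 CPM in Oxali (log2 fold change 0.31, SE 0.08, adjusted p 0.00268). Hdac11 was the member with the largest rise, from 1.39 and 1.17 to 4.79 and 6.20 CPM (log2 fold change 2.10, SE 0.22, adjusted p 4.25e-08), and Sirt7 and Kat6b rose by 0.67 and 0.59. Hdac2, a class I deacetylase, was at 179.7 and 181 CPM in Ctrl and 107 and 105 CPM in Oxali (log2 fold change -0.76, SE 0.04, adjusted p 1.15e-12), and Hdac10 and Kat2a fell (log2 fold changes -0.74 and -0.53).

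The 7 mitochondrially encoded genes with counts gave no common direction. Of these mt-Nd6 and mt-Nd5 rose by 0.40 and 0.31, mt-Nd1 fell by 0.32 and 4 were not called. Replicate 2 of Oxali had more such counts than replicate 1 (0.917% of its total against 0.783%), Ctrl had 0.769% in both, and without Oxali 2 the list had 1 rise and 4 falls.

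The remaining large falls were in genes of varied function. Ly6a, a surface antigen of stem-like cells, was at 132 and 123 CPM in Ctrl and 24.1 and 23.7 CPM in Oxali (log2 fold change -2.42, SE 0.06, adjusted p 3.13e-17). Wfdc12, of a family of secreted protease inhibitors, was at 185 and 175 CPM in Ctrl and 36.9 and 32.3 CPM in Oxali (log2 fold change -2.38, SE 0.05, adjusted p 2.57e-17). Rpl22l1, a paralog of a ribosomal protein, was at 63.1 and 56.7 CPM in Ctrl and 11.4 and 10.6 CPM in Oxali (log2 fold change -2.44, SE 0.08, adjusted p 1.70e-15). In each of these genes the Oxali libraries were close to each other and far below both controls. The log2 fold change was -3.22 (SE 0.31) in Bhlha15, a factor of secretory cells, -2.16 (SE 0.08) in Dera, of deoxyribose breakdown, -2.32 (SE 0.24) in Plac8 and -2.18 (SE 0.17) in Krt76, a keratin. Gm49602 and Gm4316, at -2.24 and -2.08, are predicted genes. Among gene classes of the annotation, processed pseudogenes differed in direction, as 14.6% of 501 fell at least 2-fold and 11 genes rose that far, while of 11320 protein-coding genes 2.39% fell and 10.2% rose that far. Such copies share reads with their parent genes, so their values are uncertain. Among long noncoding genes the share that rose this far was 26.9% of 283 lincRNA genes and 18.1% of 304 antisense genes. Strand use in the counting is not stated, and antisense counts may hold reads of the partner gene. Such rises also varied with level. In the lowest of 10 equal bins by level in IFN200, 552 of 1322 genes rose this far, against 17 of 1318 in the top bin. The part of level in the shares of these classes was not tested.

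The same drug effect can be read in 8 libraries that the comparison does not use. Combo200 against IFN200 had 9217 genes called (69.9% of those tested), and 7937 of these had been called in the same direction by Oxali against Ctrl, which is 89.1% of the 8911 and 86.1% of the 9217. Another 17 genes were called in opposite directions. At 2000 pg 9522 genes were called (72.3%), and 8023 matched, 90.0% of the 8911 and 84.3% of the 9522, with 29 opposite. Without the IFN2000 library that stood apart, 7782 of the 8911 (87.3%) matched. Of the 1820 genes changed at least 2-fold, 1592 and 1624 were called in the same direction, and their median ratio of log2 fold changes to Oxali against Ctrl was 0.96 and 0.99. Across the 13177 genes Pearson's r of the fold changes was 0.862 and 0.860. These are descriptions across genes, which are not independent replicates, and the fit and its estimate of spread are shared. For Cps1 the log2 fold changes were -5.41 and -4.92, for Ccl9 4.92 and 4.27, and for C3 4.22 and 3.99. The median of the lipid list was -0.75 and -0.88, that of ribosome biogenesis -0.37 and -0.42, and that of the NF-κB pathway 0.83 and 0.73. The antiviral list was at 1.98 and 1.79 against 0.77 without IFNγ. The interaction test, which asks whether the Oxali effect differs when IFNγ is present, called 8 of its 34 tested members at 200 pg and 16 at 2000 pg. Over all genes it called 92 (0.698%) and 359 (2.72%). Among these, 77 and 311 were called in Oxali against Ctrl. There the fitted effect was larger with IFNγ in 47 and 224, smaller in 15 and 38, and of opposite sign in the other 15 and 49. These were counted whether or not the effect with IFNγ was itself called. The counts depend on single libraries: at 200 pg 33 genes were called without Combo200 3 and 135 without Oxali 1, and at 2000 pg 102 without Ctrl 1 and 1035 without IFN2000 3. Of the genes called, 80.4% at 200 pg and 78% at 2000 pg had a positive interaction, and 70.4% and 59% with upper-quartile scaling.

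**Figure D4:**
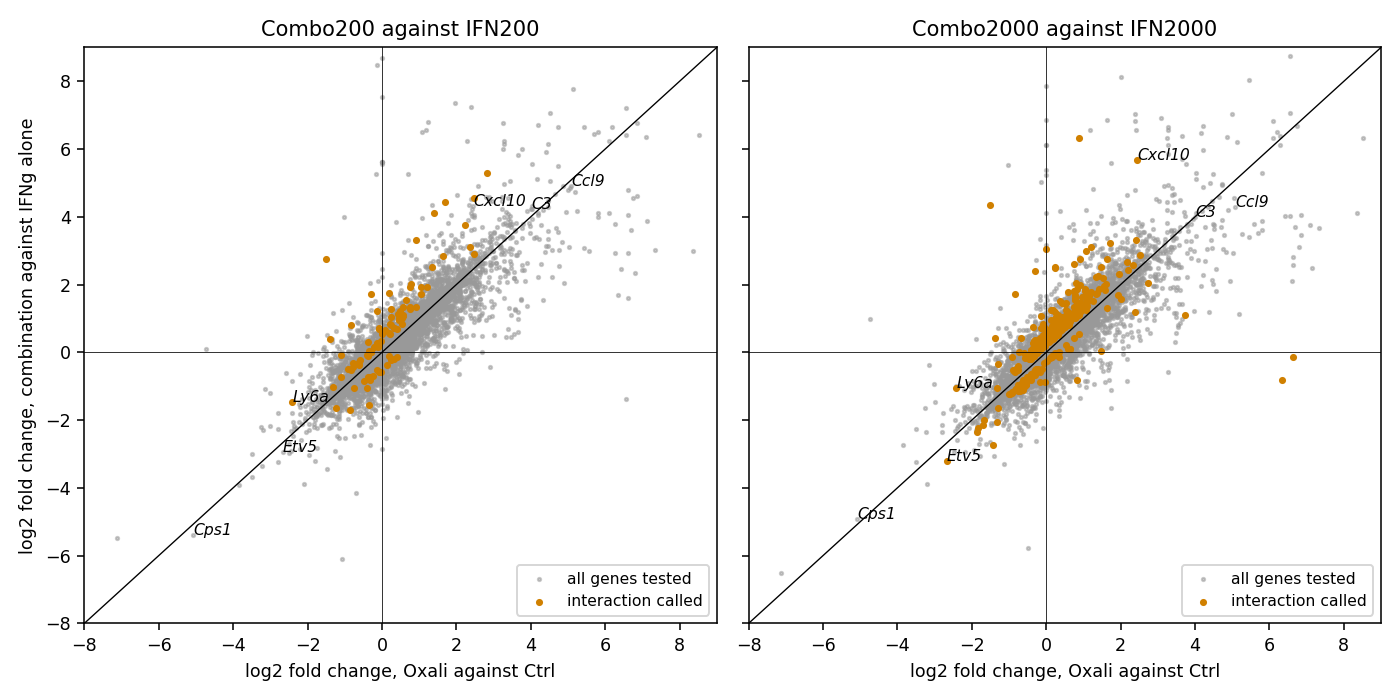
Log2 fold change of Oxali against Ctrl (horizontal) against that of the combination over IFNγ alone (vertical) for the 13177 genes tested, at 200 pg (left) and 2000 pg (right), with genes whose interaction was called in orange and a line of equality. The points run along the line, with Ccl9 and C3 at the upper right and Cps1 at the lower left, and Cxcl10 lies above it at both doses (log2 fold change 2.44 without IFNγ, 4.31 and 5.66 with it).

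Fold changes varied with the length of genes, a feature the comparison did not use. They also varied with level, which the filter on low counts did use. Over 10219 protein-coding genes with at least 1 CPM in Ctrl, the shortest of 10 equal bins by span (up to 5.00 kb) had a median log2 fold change of -0.14, and 46.0% of it fell. The longest bin (110.5 kb and over) had a median of 0.20, and 53.7% of it rose. Both Oxali libraries showed it, with Spearman correlations across genes of 0.13 and 0.17 between span and the log2 ratio to Ctrl. A trend with length also ran between libraries without Oxali: the same correlation was 0.26 and 0.10 in IFN200 and -0.36 and -0.19 in IFN2000. Its part in the Oxali values was not tested. By level, read in the IFN200 libraries so that no library is shared, the top of 10 equal bins of tested genes (180.0 CPM and over) had a median of -0.30, with 63 genes at least 2-fold lower and 17 higher. In the lowest bin, up to 0.524 CPM, 552 genes were at least 2-fold higher and 50 lower. A gene that low in IFN200 could pass the filter mainly through higher counts in other libraries, such as Oxali and the combinations. The filter itself thus favours rises in that bin. The part of level in the values of the gene lists was not tested.

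**Figure D5:**
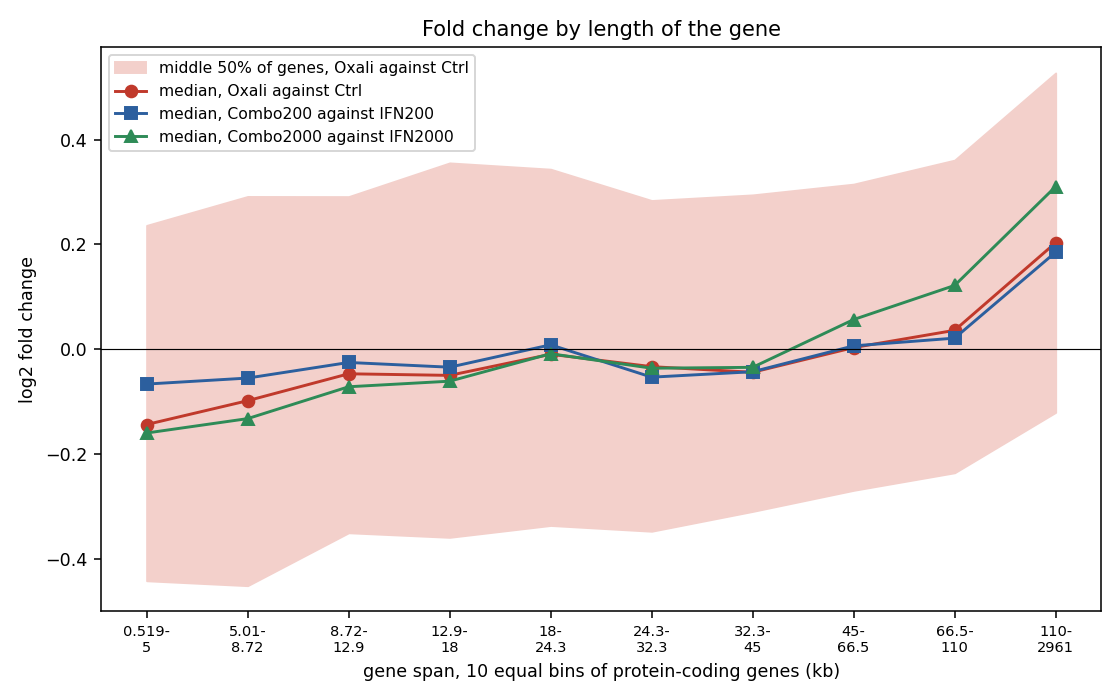
Median log2 fold change in 10 equal bins of gene span (kb, 10219 protein-coding genes) for Oxali against Ctrl and for the combinations over IFNγ alone. The band is the interquartile range of genes in Oxali against Ctrl. The medians go from -0.14 in the shortest to 0.20 in the longest bin for Oxali, and from -0.07 to 0.18 and -0.16 to 0.31 in the other comparisons, while the band is wider than this change in every bin.

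Markers of immune cells were low. The summed level of 12 T cell markers was 0.556 to 0.811 CPM in Ctrl and 2.00 to 2.21 CPM in Oxali, and 9 of the 12 were at 0 in each control and 8 in each Oxali library. Cd3e and Ptprc did not pass the filter. Of the 2 tested Lck, a kinase of T cells, rose by 1.96 (SE 0.55). The 10 macrophage markers summed to 13.2 to 15.4 CPM and 16.5 to 17.2 CPM, with 7 at 0 in each control and 4 or 5 in Oxali. Most of this sum was Cd14, at 12.5 and 14.1 CPM in Ctrl and 14.6 and 15.5 CPM in Oxali, which was not called. Csf1r, the receptor for Csf1, had 0 counts in Ctrl and 8 and 9 in Oxali and was at least 2.50-fold higher. Their part in the chemokine and antiviral values was not tested.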

How the data were processed

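Poly(A) RNA of Myc-CaP cells was sequenced with a stranded kit. The counts deposited by the authors are raw reads per gene symbol in 12 libraries. Per the methods of the study, STAR 2.7.3a mapped reads to GRCm38 and featureCounts counted them on GENCODE gene models, and the submitters' processing notes also list RSEM 1.3.0. Strand use in the counting is not given in the sources used here, so overlapping genes may share reads. The table had 55216 genes, 28300 of them without a count.

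From these counts, the 6 group means of all 12 libraries were fitted in 1 model, without covariates, in edgeR 4.0.16 (R 4.3.3), with TMM scaling, after filterByExpr (minimum count 10, minimum total 15). Contrasts were tested with the quasi-likelihood F test, and a Benjamini-Hochberg adjusted p under 0.05 made a call. The SE was obtained from the fold change and F. The smallest two-sided p of an exact permutation test is 0.333 at 2 against 2. Genes with at most 3 counts in each control library are given as lower bounds. The code was tested on simulated data. Coordinates are from a later GENCODE release on GRCm38, in which 13024 of the 13177 tested symbols had a single entry.

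Genes were named by rule: of the called genes averaging 1 log2 CPM or more, whose groups did not overlap, the 12 that rose and the 12 that fell most, in every list the 3 called members at that level that rose and the 3 that fell most, and Ccl9, C3, Cps1, Etv5, Cdkn1a, Mdm2, Myc, Ep300, Crebbp, Nfkb1, Nfkb2, Rela, Relb, Fas, Etv4, Dusp6, Slc31a1 and Ddit3. Members, lists and tests were chosen with earlier results of these data known. Some genes that this rule covers are not reported here. Other genes named, such as markers of other cell types and members given by name alone, were picked after their values were seen. Alternatives were other scalings, filters and samples in the fit, a replicate block, DESeq2 1.42.0 and leaving out each library.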

Additional observations from a re-analysis of the deposited data

Results flagged for a closer look

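The effect of Oxali differed with IFNγ present, by the interaction test of edgeR, in 92 genes at 200 pg and 359 at 2000 pg, and in the following named genes. A positive value means a higher log2 fold change for Oxali with IFNγ than without.

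At 200 pg the difference was 0.95 for Ly6a, which fell less, 0.45 for Csf1, which rose more, and 0.38 for Gstp1, which fell less. It was -0.53 for mt-Nd6, -0.50 for mt-Nd5 and -0.49 for mt-Nd1. Of the 7 mitochondrially encoded genes tested, 6 had a called interaction at 200 pg and none at 2000 pg. Their median log2 fold change was -0.03 for Oxali against Ctrl, -0.50 at 200 pg and 0.22 at 2000 pg. Such genes made up 0.963% and 0.972% of all counts in IFN200, above 0.769% in both Ctrl libraries. The share was 0.750% and 0.703% in Combo200 and 0.573% and 0.656% in IFN2000. The part of these shares in the interactions was not tested.

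At 2000 pg the difference was 1.36 for Ly6a (adjusted p 1.31e-09), 1.06 for Mxd4 (adjusted p 4.59e-06), 0.26 for Gaa, -0.24 for Slc7a5 and -0.53 for Etv5 (adjusted p 0.047), and these were also called without the IFN2000 library that stood apart (Etv5 -0.60, adjusted p 0.0378). It was 3.22 for Cxcl10 (adjusted p 0.0329), 0.30 for Tgfb3 and -0.21 for Hdac2, and without that library these calls were lost, with adjusted p of 0.0807, 0.0728 and 0.108. Traf1 is also touched by that library. Its log2 fold change in Combo2000 against IFN2000 was 1.12, and 4.68 without IFN2000 replicate 2.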

How the results depend on the processing

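Oxali against Ctrl had 8911 genes called, 8922 with the size factors of DESeq2, 8897 with upper-quartile scaling, 7834 in DESeq2, 8770 with the replicate block and 7901 to 8122 with 1 library left out. Deviations from the group means of Ctrl and Oxali correlated at -0.0037 across genes between libraries of the same replicate number. With 1 pair per group, this cannot show whether equally numbered libraries shared a culture, and no label says so. With a mean of at least 50 counts, 719 genes rose and 219 fell at least 2-fold, since fewer genes were tested. Rises and falls of that size numbered 1232 and 383 with only the groups compared, where 12349 genes were tested, and 1219 and 347 in DESeq2. Over 1519 alternatives of the 139 named genes 1488 kept direction and call, 24 lost the call, 7 gained it and none reversed. Of 526 alternatives of list counts 503 stayed within 1.5 times. With a mean of at least 50 counts, 7 chemokines rose, 2 complement genes fell, 1 antiviral gene fell and 0 macrophage markers rose. With only the groups compared, 3 complement genes and 0 macrophage markers rose. Antiviral genes that fell numbered 1 with upper-quartile scaling, in DESeq2, with the replicate block and with any library left out. In DESeq2 0 urea and pyrimidine genes rose, and without a filter 2 mitochondrially encoded genes fell. With 1 library left out the ranges were 3 to 4 complement genes higher and 1 to 2 lower, 0 to 1 urea and pyrimidine genes higher, and 1 to 3 mitochondrially encoded genes higher and 1 to 4 lower. The medians of DNA replication (-0.03 to 0.07) and of mitochondrially encoded genes (-0.21 to 0.13) changed sign. Those of platinum transport (-0.17 to 0) and of T cell markers (0 to 1.89) reached 0. Other medians that moved by over 1.5 times were those of chemokines (0.57 to 1.59), complement (0.75 to 1.54) and epithelial-mesenchymal transition (0.47 to 0.76). Those of apoptosis (0.18 to 0.39), p53 targets (0.15 to 0.38), fibroblast and muscle markers (0.13 to 1.785) and macrophage markers (0.08 to 0.95) did so too. Nearer 0, this held for MAPK feedback (0.06 to 0.23), prostate (0.09 to 0.21), mitosis (0.06 to 0.14), histone acetylation (0.01 to 0.11) and repair (0.02 to 0.10). Interactions were the least stable. At 200 pg 92 genes were called, 262 without a filter, 172 with only the groups compared, 48 with the replicate block and 33 to 135 with 1 library left out. At 2000 pg 359 were called, 785 without a filter, 218 in DESeq2, 241 with only the groups compared and 102 to 1035 with 1 library left out, and the share higher was 78%, or 59% with upper-quartile scaling. At 200 pg that share was 80.4%, 70.4% with upper-quartile scaling, 74.4% with the size factors of DESeq2 and 90.5% in DESeq2. The cause of these changes was not tested. Where a fit leaves 1 library in a group, that library is assumed to vary like the others. Depth limits genes at or under 3 counts in Ctrl, 336 of those tested.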
